A study of Mus musculus with 18 samples.

Results

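Genes that build, mark or steer the fat cell were followed in the liver and the epididymal fat of male mice on 3 diets. The set is 10 genes, Pparg, Cebpa, Cebpb, Klf15, Ppargc1a, Adig, Acvr1c, Nnat, Adrb3 and Aqp7, chosen by name, and every array probe annotated to them was read on all 18 arrays of the series. Of the 10 genes, 8 had a named probe, with 16 probes in all (3 for Pparg, 4 for Nnat, 4 for Aqp7 and 1 for each other gene), while Cebpb and Adrb3 were not analysed here. The mice, labelled C57BL/6J in the growth protocol and C56BL/6J in the strain field, arrived at 4 weeks of age and ate a normal diet (ND), a high-fat diet of 20% fat and 1% cholesterol (HFD), or that high-fat diet with 0.005% (w/w) of the plant flavonoid luteolin (LU) for 16 weeks. Each tissue had 3 Illumina bead arrays per diet, from diet groups of 10, 13 and 13 mice. Nothing in the labels ties the arrays of a diet to different mice, so the p-values speak only for the spread among these arrays, part of which may be technical.

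PPAR gamma is the nuclear receptor that drives fat cell differentiation. It binds DNA as a partner of a retinoid X receptor, and with the C/EBP factors it switches on the genes of lipid storage and keeps the mature adipocyte in its state. Liver holds little PPAR gamma in lean animals and more when fat accumulates in it, whereas C/EBP alpha, KLF15 and PGC-1 alpha also serve the hepatocyte in glucose production and mitochondrial metabolism.

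Values are log2 signals after background correction and quantile normalization within a tissue, where 1 unit is a doubling, and a probe was called detected on an array at a detection p-value under 0.05. Differences are given ± SE from limma with n = 3 arrays per diet, with p-values adjusted (Benjamini-Hochberg) across 8937 genes in liver, 10240 in fat or 10764 with both tissues. Between 15464 and 16998 probes were detected per liver array and between 19113 and 19852 per fat array, and precision is limited by how few arrays there were. All 8 members with a probe were detected on the 9 fat arrays, and 6 entered the test in liver, where Acvr1c and Nnat were detected on no array. Of 9 adipocyte markers with a probe, all 9 were detected on every fat array, and of 9 hepatocyte markers 7 were detected on every liver array. In whole tissue, fewer cells of a type and less RNA per cell cannot be told apart.

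The first comparison, of HFD with ND fat, asks how the high-fat diet changed these genes in their own tissue. Of the 8 members tested in fat, 7 fell and none rose, and Aqp7 did not pass. Over all 10240 genes tested in fat, 23.9% fell and 21.5% rose. The median difference of the 8 members was -0.68, against -0.03 over all genes. The plot of fat values by diet shows each array.

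**Figure D1:**
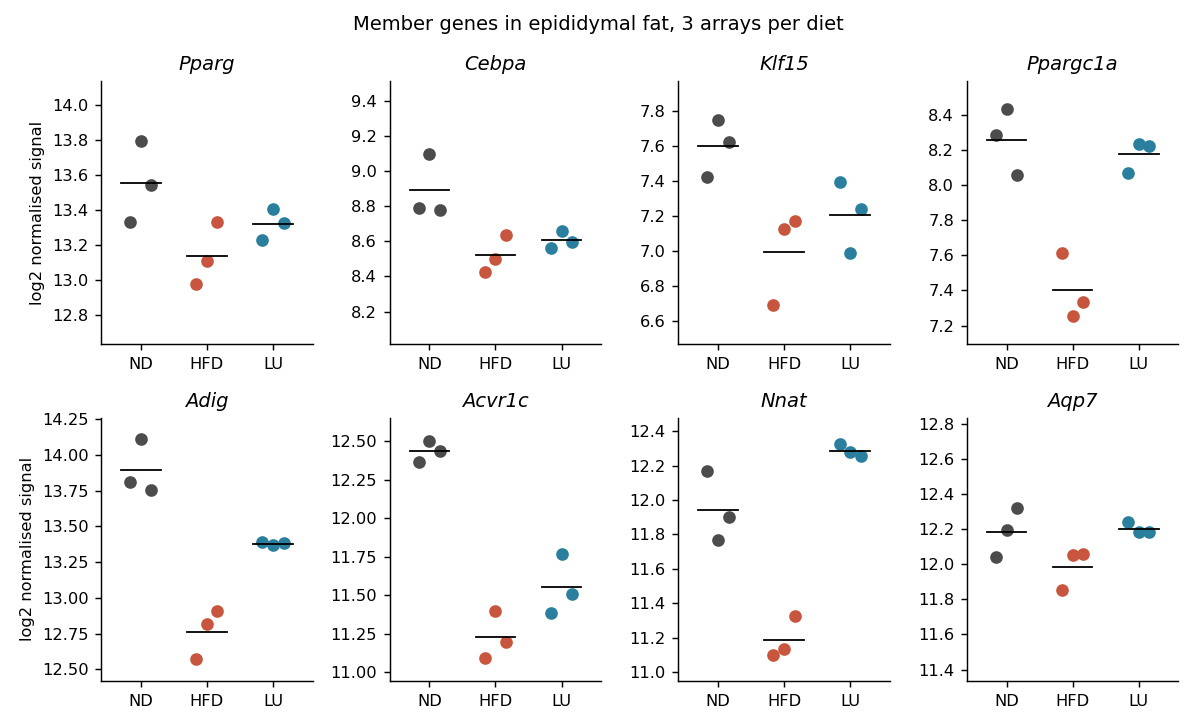
Log2 normalised signal (y axis) of the 8 member genes in epididymal fat on the normal diet (ND), the high-fat diet (HFD) and the high-fat diet with luteolin (LU), where each point is 1 array and each bar the mean of 3. All members but Aqp7 have all 3 HFD arrays below all ND arrays, and the LU arrays of Nnat, Ppargc1a, Adig and Aqp7 lie above all their HFD arrays. The share of all genes separated in these ways was not computed.

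Acvr1c and Adig fell furthest. Acvr1c encodes ALK7, a type I receptor of the activin family that restrains lipolysis in fat cells. Its values were 12.36, 12.50 and 12.43 on the ND arrays and 11.10, 11.40 and 11.19 on the HFD arrays. The 2 diets did not overlap, and Acvr1c was lower by 1.20 (log2 difference -1.20 ± 0.11, adjusted p = 3.09e-05). Adig encodes adipogenin, a small membrane protein of the fat cell and its lipid droplets, and read 13.81, 14.11 and 13.76 on ND and 12.57, 12.82 and 12.90 on HFD. Every HFD array lay below every ND array (-1.13 ± 0.11, adjusted p = 4.58e-05).

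Ppargc1a and Nnat followed. Ppargc1a encodes PGC-1 alpha, the coactivator of mitochondrial and thermogenic genes. It read 8.28, 8.43 and 8.06 on ND and 7.62, 7.25 and 7.34 on HFD, again with no overlap (-0.86 ± 0.12, adjusted p = 0.00037). Without background correction this difference was -0.48 and also passed. Nnat encodes neuronatin, a small membrane protein of the endoplasmic reticulum whose gene is imprinted and lies within an intron of Blcap. It read 12.17, 11.76 and 11.90 on ND and 11.10, 11.14 and 11.33 on HFD (-0.76 ± 0.10, adjusted p = 0.000366). The other 2 Nnat probes detected in fat were also lower, by -0.50 ± 0.11 and -0.55 ± 0.11, and both passed with all probes adjusted together (0.00529 and 0.00289).

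The transcription factors moved less. Klf15, a zinc finger factor that activates Pparg and genes of amino acid and glucose use, read 7.42, 7.75 and 7.62 on ND and 6.69, 7.12 and 7.17 on HFD (-0.60 ± 0.15, adjusted p = 0.00926), and -0.28 without background correction, which passed too. Cebpa, the C/EBP factor that sustains Pparg expression, read 8.79, 9.10 and 8.78 on ND and 8.43, 8.50 and 8.64 on HFD (-0.37 ± 0.10, adjusted p = 0.012). Pparg itself read 13.33, 13.79 and 13.54 on ND and 12.98, 13.11 and 13.33 on HFD. The highest HFD array lay next to the lowest ND array without overlap, and the difference of -0.42 ± 0.13 passed (adjusted p = 0.0227). This call ended without ND array 2, HFD array 1 or HFD array 2 (adjusted p = 0.0659, 0.081 and 0.0658) and with only the arrays compared (0.0508). The other 2 Pparg probes did not pass, with -0.27 ± 0.16 and 0.10 ± 0.15.

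Aqp7, the channel through which glycerol leaves the fat cell, read 12.04, 12.19 and 12.32 on ND and 11.85, 12.05 and 12.06 on HFD. The 2 groups overlapped and the difference did not pass (-0.20 ± 0.09, adjusted p = 0.0864, 95% interval -0.39 to -0.01). Its probes disagreed. A second probe was lower by -0.39 ± 0.11 and passed among all probes (adjusted p = 0.0181), and 2 others differed by -0.02 and -0.04. The kept probe passed without ND array 1 (-0.27, adjusted p = 0.0306) and with trend and robust moderation (0.046).

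Sequence upstream of Adig, Acvr1c, Nnat and Pparg is shown because these 4 members fell in HFD fat and lay above their liver level on every diet. Each window is the 250 bases before a start annotated by RefSeq on GRCm38.p6, read 5′ to 3′ on the gene's strand, and 9 members gave 13 windows. Pparg has 3 annotated starts, and its start 1 and start 3 are shown. Acvr1c has 2, and its start 1 is shown. Capitals mark AGGTCA, the half-site of nuclear receptors, TTNNGCAA, a C/EBP recognition sequence, and CACCC, a sequence bound by KLF factors, each on either strand.

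Adig, chr2:158502362-158502611, plus strand: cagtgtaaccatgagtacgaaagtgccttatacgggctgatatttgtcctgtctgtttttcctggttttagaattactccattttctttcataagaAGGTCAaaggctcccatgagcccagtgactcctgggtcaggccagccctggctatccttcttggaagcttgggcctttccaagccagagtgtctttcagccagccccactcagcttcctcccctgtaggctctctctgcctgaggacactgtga

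Acvr1c, start 1, chr2:58357759-58358008, minus strand: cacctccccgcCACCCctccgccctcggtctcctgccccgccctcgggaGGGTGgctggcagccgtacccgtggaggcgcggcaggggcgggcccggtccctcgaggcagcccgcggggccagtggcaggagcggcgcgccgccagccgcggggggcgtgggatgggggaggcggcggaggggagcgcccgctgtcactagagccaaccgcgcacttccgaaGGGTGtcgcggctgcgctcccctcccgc

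Nnat, chr2:157559828-157560077, plus strand: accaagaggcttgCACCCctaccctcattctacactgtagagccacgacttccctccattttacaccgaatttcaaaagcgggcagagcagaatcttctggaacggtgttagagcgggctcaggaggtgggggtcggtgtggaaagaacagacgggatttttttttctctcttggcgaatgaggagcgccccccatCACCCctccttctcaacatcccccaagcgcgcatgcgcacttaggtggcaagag

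Pparg, start 1, chr6:115360894-115361143, plus strand: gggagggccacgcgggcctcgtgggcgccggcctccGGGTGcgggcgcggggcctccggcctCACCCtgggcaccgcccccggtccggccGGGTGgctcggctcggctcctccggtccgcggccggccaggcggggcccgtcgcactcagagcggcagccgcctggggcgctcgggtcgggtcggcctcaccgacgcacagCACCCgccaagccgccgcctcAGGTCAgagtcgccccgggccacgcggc

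Pparg, start 3, chr6:115421816-115422065, plus strand: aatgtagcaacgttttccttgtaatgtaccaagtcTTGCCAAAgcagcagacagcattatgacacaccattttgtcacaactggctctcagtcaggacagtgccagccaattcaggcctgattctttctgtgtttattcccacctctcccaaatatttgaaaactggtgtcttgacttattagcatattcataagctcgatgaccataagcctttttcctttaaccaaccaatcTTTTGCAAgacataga

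The Adig window held 1 half-site and neither of the other sequences. The windows of Acvr1c start 1 and of Nnat held 3 and 2 CACCC matches and no half-site, and that of Acvr1c start 2 held 0 matches of any kind. Pparg start 1 had 1 half-site and 4 CACCC matches in a window of 82.4% G and C, while start 3, in a window of 40.8% G and C, had 2 C/EBP matches and none of the others. Over the 13 windows, 5 held the half-site, 1 the C/EBP sequence and 8 CACCC. Among 32851 windows of the same length, 14% held the half-site, 9.56% the C/EBP sequence and 52% CACCC. None of the 13 held 2 half-sites with 1 base between them, the arrangement bound by PPAR gamma and its partner, which 0.0335% of all windows hold. No match overlapped another in the windows printed, and a match is only a run of letters.

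The comparison of LU with HFD fat asks what luteolin changed on top of the high-fat diet. It shares the HFD arrays with the comparison above, so the 2 sets of values are given side by side and not correlated. Of the 8 members, 4 rose, none fell and 4 did not pass. Over all genes in fat 16.3% rose and 15.5% fell. The median of the 8 was 0.27, against 0.02 over all genes.

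Nnat rose most. It read 12.33, 12.28 and 12.26 on LU, above every HFD array and above every ND array (1.10 ± 0.10, adjusted p = 0.000377). Its other 2 probes rose by 0.69 ± 0.11 and 0.44 ± 0.11 (adjusted p = 0.00203 and 0.0141 among all probes). Ppargc1a read 8.07, 8.23 and 8.22 on LU, with no overlap with HFD (0.77 ± 0.12, adjusted p = 0.0018), and 0.43 without background correction, which passed too. Adig read 13.39, 13.37 and 13.38, a narrow range between the HFD and ND arrays (0.62 ± 0.11, adjusted p = 0.00348).

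Acvr1c read 11.39, 11.77 and 11.51 on LU. Its lowest LU array lay just below its highest HFD array, so the groups overlapped, and the difference of 0.32 ± 0.11 was just past the threshold (adjusted p = 0.0475). That call ended without ND array 1 or 3, HFD array 1 or 3, or LU array 2 or 3 (adjusted p from 0.0551 to 0.161), and with cyclic loess, median scaling, no detection filter or only the arrays compared. Aqp7 read 12.24, 12.19 and 12.18, above all HFD arrays, without passing (0.22 ± 0.09, adjusted p = 0.0827), though it passed without background correction (0.0471), with trend and robust moderation (0.0415) and with only the arrays compared (0.0443). Pparg read 13.23, 13.41 and 13.33, Cebpa 8.56, 8.66 and 8.59, and Klf15 7.39, 6.99 and 7.24. All 3 overlapped HFD, with differences of 0.18 (95% interval -0.10 to 0.46), 0.08 (-0.13 to 0.30) and 0.21 (-0.12 to 0.55). A second Pparg probe ran the other way without passing (-0.44 ± 0.15, adjusted p = 0.0512 among all probes).

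Against ND fat, LU fat had 1 member higher, 3 lower and 4 that did not pass, where 17.6% of all genes were higher and 15.6% lower. Acvr1c remained lower (-0.88 ± 0.11, adjusted p = 0.00048), as did Adig (-0.51 ± 0.11, adjusted p = 0.00708), both with LU arrays below all ND arrays. Cebpa was lower by -0.28 ± 0.10 (adjusted p = 0.0472) and Nnat higher by 0.34 ± 0.10 (adjusted p = 0.0313). Without ND array 2 or without LU array 1, 2 or 3, only 2 members were called in place of 4. The Cebpa call also ended without HFD array 1 or 2 and under 5 other settings (adjusted p from 0.0514 to 0.134), and the Nnat call without ND array 3 (from 0.0694 to 0.096 over its 5 losses). The other 2 Nnat probes differed by 0.19 ± 0.11 and -0.11 ± 0.11 and did not pass, so the probes do not give 1 direction. Ppargc1a differed by -0.08 ± 0.12, with an interval from -0.35 to 0.18, and Klf15 by -0.39 ± 0.15 (adjusted p = 0.0718), which passed without HFD array 1 (0.0365) and with the authors' values (0.0484).

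Markers of other cells moved in the same fat samples. The summed linear signal of 9 macrophage markers was 14693 to 17486 on ND, 38090 to 44833 on HFD and 25513 to 29555 on LU, with Itgax detected on no ND array. Of these 9, 8 rose on HFD and 8 fell with LU. Itgax entered the test only through the diets in which it was detected. The summed signal of 9 adipocyte markers was 203210 to 215820, 199040 to 208550 and 217540 to 220790, with 7 of 9 lower and 1 higher on HFD, and 6 of 9 higher with LU. Of 9 preadipocyte and fibroblast markers, 4 rose and 1 fell on HFD and 6 fell with LU. The summed signal of 5 mesothelium markers was 2589 to 2976 on ND, 1480 to 2162 on HFD and 856 to 985 on LU, with Krt19 detected on no HFD or LU array. The summed signal of 4 epididymis and testis markers was 375 to 388, 461 to 1796 and 309 to 502. That of 2 erythrocyte markers was 66065 to 71136, 36815 to 61206 and 25168 to 26821. Mast cell and neutrophil markers summed to 1859 to 2383, 3602 to 4784 and 1884 to 2093, with 2 of 5 higher on HFD and 4 of 5 lower with LU (median -2.58). Of 4 genes of the Kupffer cell list tested in fat, 3 fell with LU, as did 2 of 3 of the stellate cell list. Cd5l and Clec4f of the first list and Hand2 and Lrat of the second were detected on no fat array. These counts therefore do not show those liver cells in fat. The part of these shifts in the members' differences was not tested.

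The genes around PPAR gamma in fat were read from 9 lists, whose counts stand against 21.5% of all fat genes higher and 23.9% lower on HFD, and 16.3% and 15.5% with luteolin. Among 14 measured partners and coregulators of the PPAR family, 8 fell and none rose on HFD (median -0.30). The retinoid X receptor Rxra fell by 0.96 (-0.96 ± 0.09, adjusted p = 3.77e-05), and Ebf2 and Ebf1, factors that act beside PPAR gamma in fat cells, fell (-0.82 ± 0.09 and -0.58 ± 0.10). Among 17 adipocyte targets of PPAR gamma, 7 fell, none rose and 10 did not pass (median -0.15). Pck1, which makes the glycerol backbone of stored fat, was lower by -1.39 ± 0.13, the lipase gene Lipe by -0.58 ± 0.10 and the fatty acid carrier Fabp4 by -0.49 ± 0.15 (adjusted p = 0.0253). The Fabp4 call ended without ND array 2 or HFD array 1 or 2 (adjusted p = 0.078, 0.0611 and 0.0569), or with only the arrays compared (0.0562).

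With luteolin 8 of the 17 targets rose and none fell (median 0.24), 5 without HFD array 1 or 2 or LU array 2. Fabp4 rose by 1.33 ± 0.15, the fatty acid transporter Cd36 by 0.83 ± 0.10 and Pck1 by 0.82 ± 0.13. Of the 14 partners, 5 rose and 2 fell, a total of 7 that was 2 without HFD array 2 or without LU array 1 or 3, and 3 without HFD array 1 or LU array 2. It was 4 with a block for array number and without a detection filter. Rxra (0.64 ± 0.09) and Rxrg (0.48 ± 0.12) rose, and the coactivator Ncoa3 was lower (-0.32 ± 0.11, adjusted p = 0.043), a call that ended without HFD array 2 or 3, LU array 1 or 3, or ND array 3. It also ended without background correction (0.137), with median scaling (0.0534), trend and robust moderation (0.098) or a block for array number (0.0508), and without a detection filter (0.0585). The chart of list counts shows all 9.

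**Figure D2:**
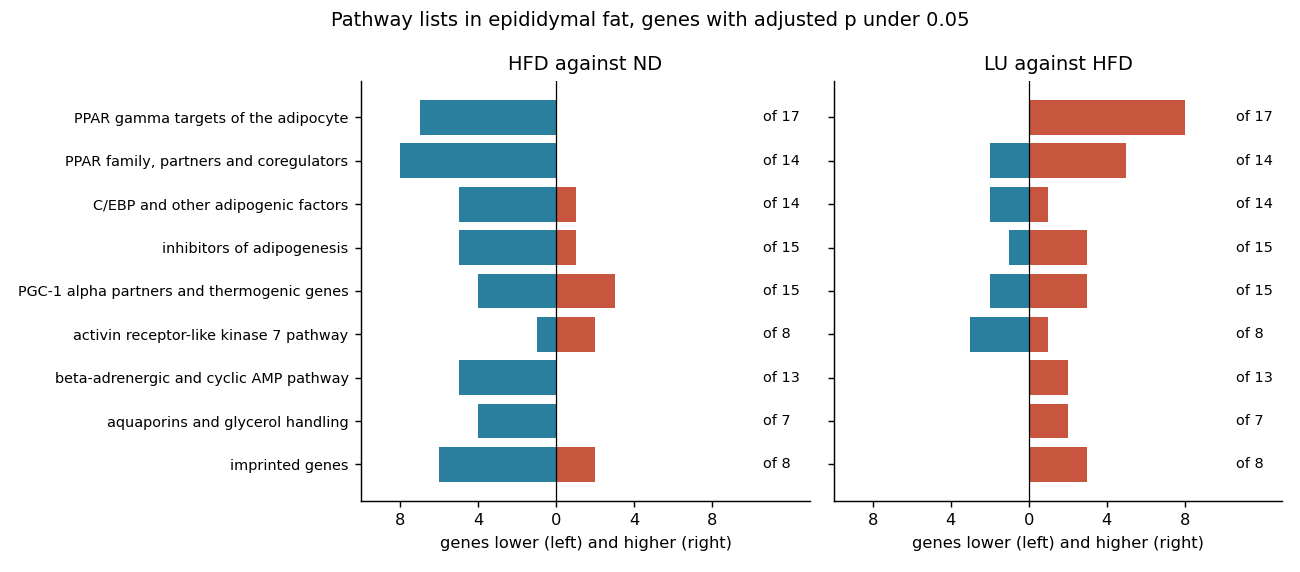
Number of genes (x axis) past an adjusted p of 0.05 in each of 9 pathway lists (y axis) in epididymal fat, lower to the left and higher to the right, with the number tested at the right edge. The 17 PPAR gamma targets have 7 lower on HFD and 8 higher with LU, and the activin receptor-like kinase 7 list has 2 higher and 1 lower on HFD.

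Genes tied to single members were read in the same way. Around Acvr1c, 2 of 8 pathway genes rose and 1 fell on HFD (median -0.02). Gdf3, a ligand of ALK7 made by macrophages in fat, was not detected on the 3 ND arrays and was at least 6.31-fold higher on HFD (2.86 ± 0.14, adjusted p = 9.29e-07). It passed the detection filter only through the high-fat diets, so the filter fixed part of this count. The receptor subunit Acvr2b was lower (-0.27 ± 0.08, adjusted p = 0.0165) and the signal transducer Smad3 higher (0.17 ± 0.06, adjusted p = 0.0406). Without HFD array 1 only 1 of these 3 calls was left, and Smad3 lost its call without any of ND array 2 or 3, HFD array 1 or 3, or a LU array. The Smad3 call was also lost with a block for array number (adjusted p = 0.0672), median scaling (0.0987), all detected probes (0.051), only the arrays compared (0.0979) and no detection filter (0.0624). With luteolin Gdf3 fell by 0.80 (-0.80 ± 0.14, adjusted p = 0.00291), the related receptor Acvr1b by 0.36 (-0.36 ± 0.09) and Acvr2b rose by 0.33 ± 0.08. The Acvr1b call ended without HFD array 1 or 3 or LU array 2 or 3. Gdf3 and Acvr1c had opposite signs in both comparisons, which share the HFD arrays.

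Nnat had imprinted genes beside it. Of 8 measured, 2 rose and 6 fell on HFD (median -0.57). Blcap, the gene that holds Nnat in its intron, fell by 0.82 (-0.82 ± 0.06, adjusted p = 1.09e-05), the growth inhibitor Grb10 by 0.89 (-0.89 ± 0.09) and the growth factor Igf2 by 0.73 (-0.73 ± 0.10). With luteolin 3 of the 8 rose and none fell, among them Blcap (0.47 ± 0.06, adjusted p = 0.00105), Dlk1 (0.31 ± 0.08) and the cell cycle inhibitor Cdkn1c (0.30 ± 0.09). Without HFD array 2 only 1 of the 3 was called, and Cdkn1c also lost its call without HFD array 1 or LU array 1 or 3 and with a block for array number (0.0521).

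For Ppargc1a, 15 partners and thermogenic genes gave 3 higher and 4 lower on HFD, shares near the 21.5% and 23.9% of all genes. Cidea, a lipid droplet protein, fell by 1.36 (-1.36 ± 0.18, adjusted p = 0.000248), and the nuclear receptor Esrrg (0.57 ± 0.15) and the oxidase subunit Cox7a1 (0.48 ± 0.17, adjusted p = 0.0446) were higher. The count of 7 was 4 without HFD array 1 and 2 without HFD array 2, and the Cox7a1 call ended without any HFD or LU array, with a block for array number (0.0533), with only the arrays compared (0.0918) and without a detection filter (0.0593). The count was 4 with only the arrays compared too. With luteolin 3 rose and 2 fell, with Cox8b (0.72 ± 0.10), the related coactivator Ppargc1b (0.52 ± 0.15) and Cidea (0.52 ± 0.18, adjusted p = 0.0494) higher. This count of 5 fell to 1 without LU array 1, 2 or 3, and to 2 without HFD array 1 or 2. It was 3 without ND array 3 or HFD array 3, with median scaling and with a block for array number, 2 without a detection filter, and 8 (5 higher, 3 lower) with only the arrays compared. Of these 3 genes, Ppargc1b and Cidea lost their calls without HFD array 1 or any LU array, Ppargc1b also without HFD array 3, and Cidea also without HFD array 2 or ND array 3, without background correction or a detection filter, with cyclic loess and with a block for array number (adjusted p = 0.0725).

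The remaining lists concern glycerol, cyclic AMP and the factors that promote or block fat cell formation. Of 7 genes of aquaporins and glycerol handling, 4 fell on HFD, with Gpd2 (-1.05 ± 0.09) and the acyltransferase Gpam (-0.73 ± 0.18) beside Pck1, and 2 rose with luteolin, Pck1 and Aqp11 (0.31 ± 0.07). Of 13 genes of the beta-adrenergic and cyclic AMP pathway, 5 fell on HFD and none rose, 3 without HFD array 1. The cyclase Adcy6 fell (-0.54 ± 0.10), as did the anchoring protein Akap1 (-0.45 ± 0.10), and both rose with luteolin (0.39 ± 0.10 and 0.45 ± 0.10). That Adcy6 rise lost its call without LU array 2 or 3, and without either array only 1 gene of the list was called. Pde4d, a phosphodiesterase of cyclic AMP, was lower by -0.35 ± 0.10 on its brightest probe. That call was lost without any ND or HFD array, and without 4 of these another probe of Pde4d was the brightest and gave a difference above 0.

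Of 14 C/EBP and other adipogenic factors, 1 rose and 5 fell on HFD. Egr2, an early factor also expressed in macrophages, rose by 2.72 ± 0.15, while Klf4 (-0.60 ± 0.12) and Stat5a (-0.39 ± 0.08) fell. With luteolin Egr2 (-0.83 ± 0.15) and Fosl2 (-0.46 ± 0.11) fell and Zfp467 (0.33 ± 0.07) rose. Of 15 inhibitors of adipogenesis, 1 rose and 5 fell on HFD, with Tgfb1 higher (0.89 ± 0.07) and Irf4 (-2.04 ± 0.43) and Klf2 (-0.60 ± 0.11) lower. With luteolin Tgfb1 fell (-0.48 ± 0.07) and Klf3 (0.32 ± 0.06) and Dlk1 were among 3 that rose, 1 without HFD array 2.

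Across the 9 fat arrays some genes traced a member closely. The points share 3 diets of 3 arrays, so these coefficients describe the order of the diets as much as anything within them. Adig ran closest to Pth1r (Pearson r = 0.996), then C1qtnf12, Zfp641, Sh3glb2 and Chst1, the last at 0.988. Acvr1c ran closest to Gpt2 (0.992), then Hcar2, Foxred1, Mettl14 and Car1 (0.982). Ppargc1a ran closest to Tdrd3 (0.992), then Rarg, Ascc1, Gprasp1 and Itpr2 (0.979). Nnat ran closest to Mpp3 (0.980), then Metap1d, Ppcdc, ATP6 and Zdhhc4 (0.977), each out of 10232 genes that are no members. Among the members, Pparg and Cebpa were most alike (0.942) and Cebpa and Nnat least (0.304).

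In liver the comparison of HFD with ND asks whether the same genes changed where fat cells are not the main tissue. Of 6 members tested, 3 rose, 1 fell and 2 did not pass, where 17.9% of all genes rose and 12.4% fell. The median of the 6 was 0.37, against 0.00 over all genes. Median scaling moved the latter to 0.12 and the split of all genes from 1599 higher and 1105 lower to 2268 and 476, and called the same number of members. Adig and Aqp7 entered this test only through the diets in which they were detected, so the filter fixed part of this count. The plot of liver values by diet marks arrays without detection.

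**Figure D3:**
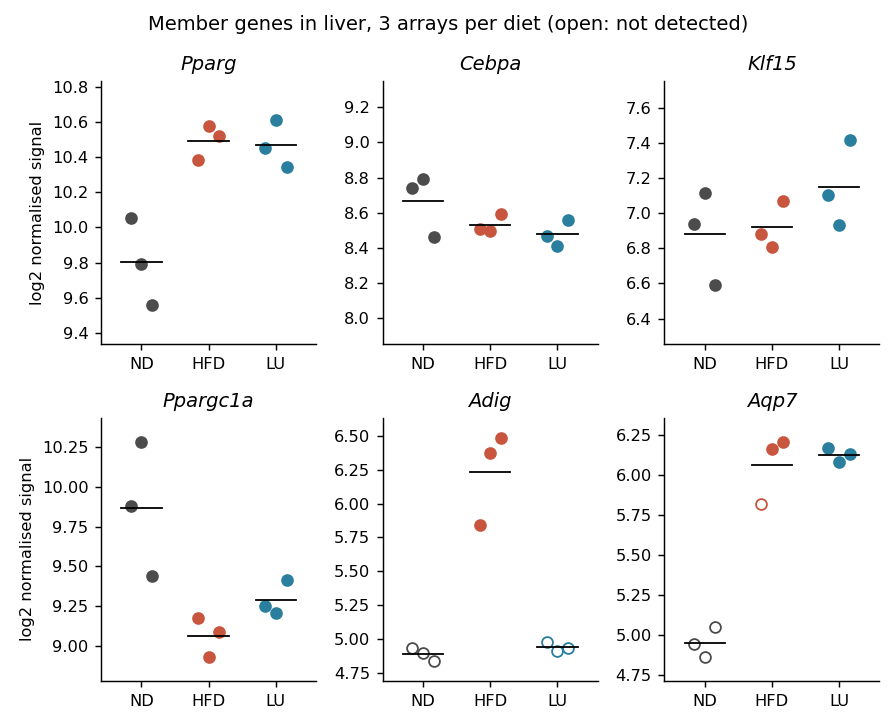
Log2 normalised signal (y axis) of the 6 members tested in liver on the 3 diets, where each point is 1 array, open points were not detected and bars are means of 3. Pparg and Aqp7 are higher on both HFD and LU than on ND, while Adig was detected on HFD alone.

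Pparg read 10.05, 9.79 and 9.56 on ND liver and 10.39, 10.58 and 10.52 on HFD liver. All HFD arrays lay above all ND arrays (0.69 ± 0.12, adjusted p = 0.00337). Only 1 of its 3 probes was detected in liver. Ppargc1a, which in liver drives glucose production and fatty acid oxidation, read 9.88, 10.29 and 9.44 on ND and 9.18, 8.93 and 9.09 on HFD, with no overlap (-0.80 ± 0.18, adjusted p = 0.0093). Cebpa (-0.13 ± 0.09, 95% interval -0.34 to 0.08) and Klf15 (0.04 ± 0.16, -0.31 to 0.39) overlapped between the diets.

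Adig was close to background in liver. It was detected on no ND array, at 4.94, 4.90 and 4.84, and on all 3 HFD arrays, at 5.85, 6.37 and 6.48 with detection p-values of 0.0491, 0.00641 and 0.00641. It was at least 1.18-fold higher on HFD (1.34 ± 0.14, adjusted p = 0.00026). Aqp7 read 4.95, 4.86 and 5.05 on ND without detection, and 5.82, 6.17 and 6.21 on HFD with detection on 2 arrays. It was at least 1.05-fold higher (1.11 ± 0.10, adjusted p = 0.000137). Without background correction the Adig and Aqp7 differences were 0.58 and 0.48. Of the 4 Aqp7 probes only the one read here passed the detection filter in liver. The others had means of 4.90, 4.81 and 4.91 on ND and 5.42, 5.37 and 4.87 on HFD. They were detected on 1, 0 and 0 HFD arrays. The adipocyte markers Adipoq, Fabp4, Lep, Plin1 and Retn were detected on no liver array of any diet. Of the 9 with a probe, 3 were detected on all HFD liver arrays. Of 3 adipocyte markers tested in liver, 1 rose and 1 fell on HFD. The summed signal of the 9 adipocyte markers with a probe was 6420 to 6895 on ND, 5707 to 6374 on HFD and 5436 to 5665 on LU. That of 9 macrophage markers was 2147 to 2444, 4235 to 5130 and 4032 to 5808, and 7 of 8 tested rose on HFD. Of 4 stellate cell markers 3 rose on HFD, as did 3 of 6 endothelium markers. Both mast cell and neutrophil markers tested rose too, but all 6 of that list were undetected on ND liver. The tested ones passed the detection filter only through the high-fat diets, so the filter fixed part of this count. Cma1, Cpa3, Mcpt4 and Tpsb2 were detected on no HFD liver array. With luteolin 5 of 6 endothelium markers (median -0.53) and 3 of 5 Kupffer cell markers fell in liver. The part of these cells in the liver values was not tested.

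With luteolin 1 of the 6 liver members fell, none rose and 5 did not pass, where 8.41% of all genes rose and 8.66% fell (752 and 774 genes, or 326 and 781 with median scaling). The 1 was Adig, which entered the test only through the HFD arrays where it is high, so the filter fixed its direction. It fell, to 4.97, 4.91 and 4.93 with detection on no LU array, at least 1.31-fold lower than on HFD (-1.30 ± 0.14, adjusted p = 0.00153, and -0.55 without background correction). Pparg read 10.45, 10.61 and 10.34, overlapping HFD, and did not pass (-0.03 ± 0.12, 95% interval -0.31 to 0.25). Aqp7 read 6.17, 6.09 and 6.13 and was detected on all 3 LU arrays (0.06 ± 0.10). Ppargc1a read 9.25, 9.21 and 9.41, above every HFD array, without passing (0.23 ± 0.18, adjusted p = 0.41).

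Against ND, LU liver had 2 members higher, 1 lower and 3 that did not pass, where 23.7% of all genes were higher and 17.4% lower (2116 and 1557 genes, or 2447 and 1044 with median scaling). Aqp7 passed the detection filter only through the LU arrays, so the filter fixed its place among the 2. Pparg was higher (0.67 ± 0.12, adjusted p = 0.00267) and Aqp7 at least 1.10-fold higher (1.18 ± 0.10, adjusted p = 5.91e-05, and 0.50 without background correction). Ppargc1a was lower by -0.58 ± 0.18 (adjusted p = 0.0289), a call that ended without ND array 1 or 2 or LU array 1 or 2 (adjusted p from 0.0642 to 0.0801), with median scaling (0.0568), with only the arrays compared (0.0525) and with a block for array number (0.0501). Cebpa differed by -0.19 ± 0.09 with overlapping arrays and did not pass (adjusted p = 0.137), and without ND array 3 it passed (-0.29, adjusted p = 0.0192). Adig was undetected in both groups, at means of 4.94 and 4.89.

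The lists around the members were mixed in HFD liver, where 17.9% of all genes rose and 12.4% fell. Of 12 PPAR gamma targets measured, 4 rose and 3 fell (median -0.04), with the lipase gene Lpl (2.26 ± 0.14) and the droplet protein Plin4 (1.57 ± 0.25) highest. Of 14 partners and coregulators, 2 rose and 5 fell. Tle3, a corepressor family member that acts with PPAR gamma, was undetected on ND and at least 1.27-fold higher, and the mediator subunit Med1 rose by 0.51 ± 0.12. The count of 7 partners was 3 to 4 without ND array 2 or 3, any HFD array or LU array 2, and the Med1 call ended without HFD array 3. Gdf3 was undetected on ND liver too and at least 1.16-fold higher on HFD, while the activin antagonist Fst fell by 1.54 (-1.54 ± 0.17). Among the thermogenic genes Cidea was at least 35.1-fold higher and Elovl3 fell by 2.37 (-2.37 ± 0.22). None of 10 genes of the beta-adrenergic and cyclic AMP pathway passed on HFD, and without LU array 3 it was 1 of 11. Of 10 C/EBP and other adipogenic factors 3 rose and none fell, with Egr2 (undetected on ND, at least 1.69-fold higher) and Srebf1 (1.30 ± 0.11). Tle3, Gdf3, Cidea and Egr2 passed the detection filter only through the high-fat diets, so the filter fixed part of the counts of their lists. Of 13 inhibitors of adipogenesis 1 rose and 1 fell, of 9 genes of glycerol handling 1 rose and 2 fell, and of 6 imprinted genes 1 rose and 3 fell. These 3 totals moved with single arrays and with the processing. The 2 inhibitors were 1 without ND array 1 or 3 or HFD array 2 or 3, with only the arrays compared and with the stricter filter. The 3 glycerol genes were 1 without ND array 2 or HFD array 1 or 2 and with median scaling. The 4 imprinted genes were 2 without ND array 2, HFD array 2 or any LU array, with cyclic loess, only the arrays compared or a block for array number, and without a detection filter.

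With luteolin Cidea fell by 2.72 in liver (-2.72 ± 0.22, adjusted p = 0.00053), and Acvr2b rose by 0.59 ± 0.07. Of the 12 PPAR gamma targets 1 rose and 2 fell, where 8.41% of all genes rose and 8.66% fell. Angptl4, a secreted inhibitor of lipoprotein lipase, fell (-0.51 ± 0.12, adjusted p = 0.0188) and Lpl rose further (0.51 ± 0.14, adjusted p = 0.0411). The Lpl call ended without any HFD or LU array, with a block for array number (adjusted p = 0.0733), with cyclic loess (0.0523) or median scaling (0.0911) and without a detection filter (0.0618), and the Angptl4 call without HFD array 3 or LU array 1 or 3. The count of 3 was 0 without LU array 1 or 3, 1 without any HFD array, and 5 without ND array 2 or 3. It was also 5 without background correction, with the authors' values and with the stricter filter, and 6 with only the arrays compared.

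Fat and liver were then set on 1 scale, with the 18 arrays normalized together and each gene read by 1 probe. The tissues lie in separate deposited tables, so differences between array runs and between tissues cannot be told apart. On the ND diet 5 members were higher in fat and 3 in liver, where 47.4% of all genes were higher and 38.2% lower in fat. The same 5 and 3 were called on HFD (46.9% and 38.4% of all genes) and on LU (46.4% and 38.3%), except that with median scaling Klf15 turned on ND. Acvr1c and Nnat were detected on no liver array and passed the detection filter only through fat, so the filter fixed their place among the 5.

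**Figure D4:**
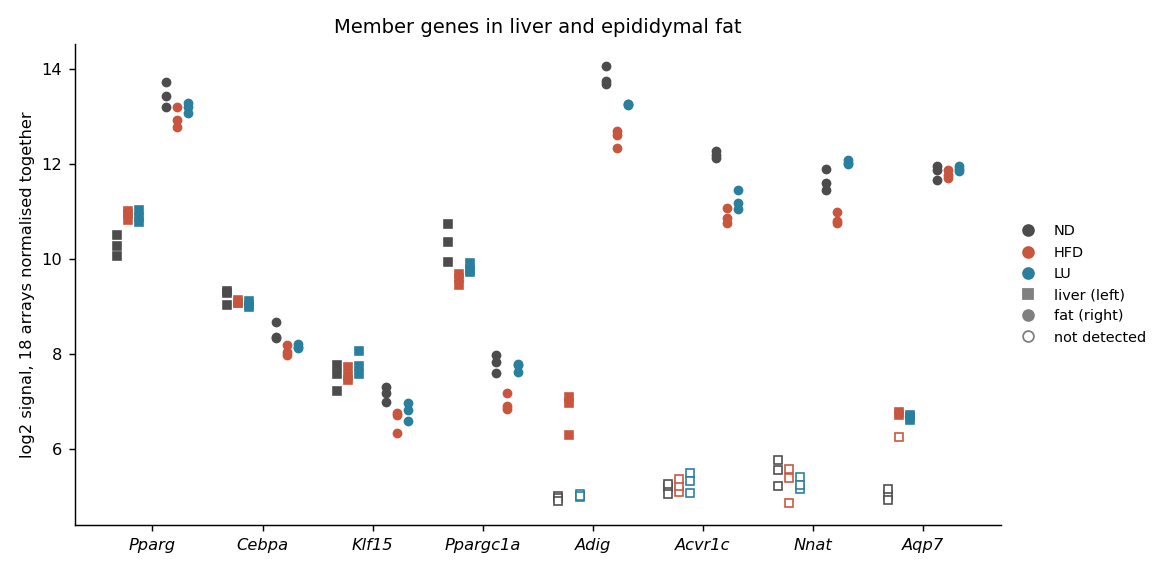
Log2 signal (y axis) of the 8 members with all 18 arrays normalised together, liver as squares at the left and fat as circles at the right of each gene, coloured by diet, with open symbols where the probe was not detected. Adig, Acvr1c, Nnat, Aqp7 and Pparg lie higher in fat, and Ppargc1a, Cebpa and Klf15 lower, though median scaling turns Klf15 on ND (0.44).

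Aqp7 is read here by another probe than in fat alone, the one that was brightest over both tissues. Acvr1c, Nnat and Aqp7 were undetected in ND liver, and in fat they were at least 52.3-fold, 35.9-fold and 40.5-fold higher. Adig, undetected there too, was at least 163-fold higher in ND fat and at least 125-fold higher in LU fat. On HFD, where liver Adig was detected but near background, the difference was 5.77 ± 0.16, and its size rests on those dim liver values. Pparg was 9.04-fold higher in ND fat (3.18 ± 0.14), 4.15-fold on HFD (2.05 ± 0.14) and 4.89-fold on LU (2.29 ± 0.14).

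The other 3 members ran the other way. Ppargc1a was lower in fat by -2.54 ± 0.16 on ND, -2.61 ± 0.16 on HFD and -2.08 ± 0.16 on LU, with no overlap on any diet. Cebpa was lower in fat by -0.76, -1.02 and -0.88 (each ± 0.10), which with median scaling became -0.05 on ND (adjusted p = 0.702), -0.46 on HFD and -0.24 on LU (adjusted p = 0.0584). Klf15 was lower by -0.97 on HFD and also on LU (95% interval -1.34 to -0.67), where the differences without background correction were -0.45 and -0.50, and by -0.37 ± 0.16 on ND with overlapping arrays (adjusted p = 0.0387). With median scaling Klf15 turned to 0.44 higher in ND fat (adjusted p = 0.0181) and to -0.31 on LU (adjusted p = 0.0817). The ND call was also lost with cyclic loess, with only the arrays compared, and without ND liver array 1 or 2 or ND fat array 1 or 3. Median scaling raised the median difference of all genes between fat and liver from 0.14 to 0.61 on ND, from 0.14 to 0.51 on HFD and from 0.11 to 0.55 on LU, and on ND it called 6691 genes higher and 2465 lower.

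In order of level, Pparg ran from ND fat (13.46 ± 0.27, SD, n = 3) through LU fat (13.19 ± 0.11) and HFD fat (12.98 ± 0.21) to HFD liver (10.93 ± 0.09), LU liver (10.90 ± 0.12) and ND liver (10.29 ± 0.23). Neighbours overlapped within fat and between HFD and LU liver. ND was thus the highest diet in fat and the lowest in liver. Adig ran from ND fat (13.84 ± 0.20) to LU fat (13.26 ± 0.01), HFD fat (12.56 ± 0.19) and HFD liver (6.79 ± 0.44), none of them overlapping the next. On the probe read here Nnat was highest in LU fat (12.04 ± 0.04), then ND fat (11.66 ± 0.22) and HFD fat (10.85 ± 0.13). Another Nnat probe detected in fat was higher on ND (mean 11.08) than on LU (10.96), and a further probe was lower (10.39 and 10.59).

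The difference of the HFD effect between tissues was tested directly. It was lower in fat for 4 of 8 members and higher for none, where 18.1% of all genes were lower and 13.3% higher. The 4 were Adig (-3.12 ± 0.23, adjusted p = 1.7e-07), Aqp7 (-1.60 ± 0.16), Acvr1c (-1.36 ± 0.17) and Pparg (-1.13 ± 0.20, adjusted p = 0.000543). Pparg is the 1 member detected on all 18 arrays that fell in fat and rose in liver. Its call in fat alone was lost without some single arrays. Its other probes did not pass in fat and were not detected in liver. With median scaling 2694 genes were lower and 1017 higher. Adig and Aqp7 rest on liver values near background, and with the authors' values they were -1.75 and -0.55. The Aqp7 probe used here did not pass in fat alone (-0.04). For Acvr1c the liver side was never detected. Ppargc1a fell in both tissues, and its difference between them was -0.08 ± 0.22 with an interval from -0.54 to 0.39. Klf15 was just short of the threshold (-0.60 ± 0.22, adjusted p = 0.0533) and passed with cyclic loess, median scaling or the authors' values, and without ND liver array 2, LU liver array 2 or 3, ND fat array 1 or HFD fat array 3. Nnat did not pass (-0.57 ± 0.23, adjusted p = 0.0758), and did so without background correction, with median scaling, with the authors' values, and without ND liver array 3, HFD liver array 2 or ND fat array 2.

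**Figure D5:**
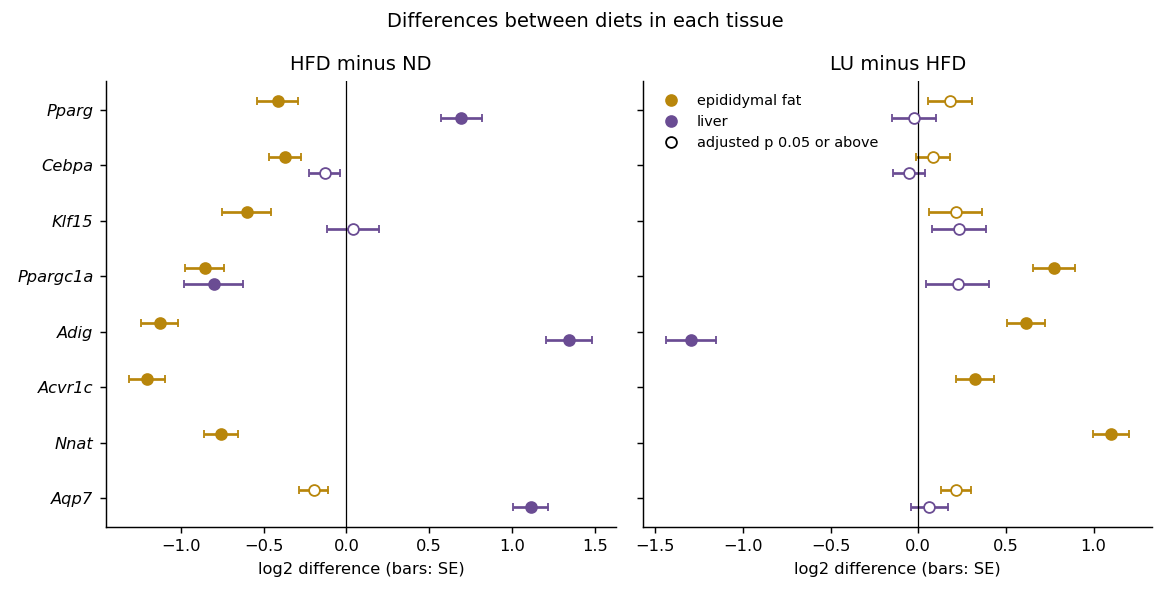
Log2 difference (x axis, bars are SE) of each member for HFD minus ND at the left and LU minus HFD at the right, in epididymal fat and in liver, with open points where the adjusted p was 0.05 or above. Aqp7 is read by a different probe in fat and in liver. Pparg and Adig lie left of 0 in fat and right of 0 in liver for HFD minus ND, and Ppargc1a lies left of 0 in both.

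For luteolin, the effect differed between tissues for 2 of 8 members, both higher in fat, where 7.22% of all genes were higher and 8.43% lower. They were Adig (2.48 ± 0.23, adjusted p = 1.73e-05), which rose in fat and fell in liver (1.19 with the authors' values), and Nnat (1.19 ± 0.23, adjusted p = 0.00414), which was undetected in liver. Nnat passed the detection filter only through fat, and liver Adig was near background on HFD and undetected on LU. These 2 calls thus rest on the fat values and on liver values at or near background. Ppargc1a did not pass (0.53 ± 0.22, adjusted p = 0.113, interval 0.07 to 1.00), and did so without ND liver array 3 (adjusted p = 0.0473) and with only the arrays compared (0.0219). For Pparg the luteolin effects in the tissues differed by 0.24 ± 0.20 (interval -0.18 to 0.66).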

How the data were processed

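The deposited tables, 1 for liver and 1 for fat, give for every probe and array an average signal intensity and a detection p-value, per the file headers. The labelling started from 550 ng of total RNA per the labels' protocols. GenomeStudio 2009.2 and R 2.4.1 are named in the submitters' processing notes. The authors also deposited log2 values, normalized apart for each tissue by a method not given in the sources used here. Set against log2 of the signal, each array correlated at 0.9996 or above, and array medians were 7.88 to 7.89 (liver) and 9.00 to 9.01 (fat). These values served as an alternative.

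The neqc function of limma 3.58.1 (R 4.3.3, offset 16) corrected the background, normalized the quantiles and took log2, within a tissue or over all 18 arrays. It inferred the negative controls from the detection p-values. A probe was kept if every array of 1 or more groups had a detection p under 0.05, and a gene was read by its brightest kept probe. Probes were named from GEO's platform annotation (22883 probes with 1 gene, 13 with several). Linear models with empirical Bayes moderation (limma) were fitted to the 9 arrays of a tissue or to all 18, and the Benjamini-Hochberg threshold over all genes was 0.05. For a gene undetected in a whole group, the dim side was raised to the lowest detected signal of each array, which makes the fold a lower bound. The fit was tested on simulated data.

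The members, the pathway and marker lists and the tests were chosen with earlier results of these data known. Of each pathway list up to 3 genes past the threshold with the largest difference are named for fat and up to 2 for liver, and for 4 members the 5 most alike genes. Promoter windows come from RefSeq tables of GRCm38.p6, and figures from matplotlib 3.10.9. Alternatives were no background correction, cyclic loess, median scaling, the authors' values, no detection filter or one at 0.01, all probes, trend and robust moderation, only the arrays compared, a block for array number, and leaving out single arrays.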

Additional observations from a re-analysis of the deposited data

Results flagged for a closer look

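A test of the difference between tissues passed for 6 member results. The HFD effect was lower in fat than in liver for Pparg (-1.13 ± 0.20, adjusted p = 0.000543), Adig (-3.12 ± 0.23, adjusted p = 1.7e-07), Acvr1c (-1.36 ± 0.17, adjusted p = 3.64e-05) and Aqp7 (-1.60 ± 0.16, adjusted p = 4.47e-06). The luteolin effect was higher in fat for Adig (2.48 ± 0.23, adjusted p = 1.73e-05) and Nnat (1.19 ± 0.23, adjusted p = 0.00414). All 6 kept their direction and their call under every alternative in which the gene was tested. Acvr1c and Nnat were detected on no liver array and passed the detection filter only through fat. Adig and Aqp7 rest on liver values near background. Of these genes only Pparg was detected on all 18 arrays, so for the others a kept call is no check of the liver side. Groups of 3 arrays are too small to test single arrays as outliers.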

How the results depend on the processing

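Of 1860 repeats of the 82 member differences, 1789 kept the direction and the side of the threshold, 46 lost their call, 24 gained one and 1 reversed, Klf15 between fat and liver on ND with median scaling (0.44). Of 251 repeated counts of members called, 240 stayed within 1.5 times. The stricter detection filter tested only 3 members in liver and with both tissues, and called 2 on HFD against ND in liver, 0 on LU against HFD in liver, 3 between fat and liver on each diet, 1 for the tissue difference of the HFD effect and 0 for that of luteolin. For LU against ND in fat the count ran from 2 to 4 with an array left out. The same count ran from 6 to 8 for HFD against ND and from 3 to 4 for LU against HFD in fat. Of 1026 repeated list counts 122 moved by more than 1.5 times. Of 1506 repeats of the pathway genes named, an alternative added after seeing the data, 111 lost their call and 4 reversed, all for Pde4d on HFD against ND in fat (0.04, 0.18 and 0.14 without ND array 1, 2 or 3 and 0.16 without HFD array 3), where another probe of the gene was the brightest. With single arrays left out this Pde4d difference ran from -0.35 to 0.18.

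The numbers of the arrays were not treated as pairs. Arrays of 1 number correlated between -0.155 and 0.192 in liver, -0.081 and 0.098 in fat and -0.082 and 0.135 across tissues. For arrays of other numbers the ranges were -0.172 to 0.187, -0.154 to 0.079 and -0.1135 to 0.0618. Across tissues 2 of 9 pairs of 1 number lay over 0.1, against 0 of 18 of other numbers. These values do not settle whether liver and fat were paired. With the replicate number as a block (replicate block) the member counts were 4, 1 and 2 in liver and 7, 4 and 3 in fat. These are for HFD to ND, then LU to HFD, then LU to ND. The counts were 8 between the tissues on each diet, and 4 and 2 for the tissue differences. This block gave arrays of 1 number the same term in every diet and tissue. Liver and fat of the same diet and number were not fitted as pairs. A block for slide or scan was not run, since the file headers give none. The authors' values were not used for levels between tissues, since they were normalized separately. Adig and Aqp7 in liver lie near background, so folds against groups without detection are lower bounds and the others rest on dim values.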
